A study of Mus musculus with 6 samples.

Results

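Amino acid catabolism and the one-carbon cycle that runs beside it were followed through 47 enzyme genes in mouse liver. The genes were taken by symbol from a list of enzymes of tyrosine, tryptophan, histidine, methionine, cysteine, glycine, branched-chain amino acid, proline, lysine and glutamate breakdown. All 47 were among the 16603 genes of the deposited count table, and all 47 were among the 12612 genes that passed the filter on low counts and were tested. RNA-seq libraries from whole liver came from 3 samples with the genotype label WT and 3 with the label Mdr2 knockout. Mdr2, encoded by Abcb4, carries phosphatidylcholine across the hepatocyte membrane into bile, and its loss in mice is known to cause chronic bile duct injury with fibrosis. The labels give tissue and genotype only, with no age, sex, strain, allele or diet, and nothing in them ties a sample to an animal of its own. Each p-value therefore reflects how far these samples spread, and some of that spread may be technical.

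The liver is the main site at which most amino acids are broken down. The nitrogen is passed by aminotransferases to glutamate and on to urea, and the carbon skeletons enter the citric acid cycle or are turned into glucose and ketone bodies. Methionine is activated to S-adenosylmethionine, the methyl donor of the cell, which becomes S-adenosylhomocysteine after it has given its methyl group and is then cleaved to homocysteine. Homocysteine is either methylated back to methionine or passed on to cysteine and taurine. Glycine, serine, sarcosine and histidine feed single carbons into the folate pool. Most of these enzymes are far more abundant in hepatocytes than in other liver cells. Exceptions include those of the branched-chain pathway and the aspartate and alanine aminotransferases, which are found in many tissues.

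Levels are given as CPM, counts scaled per 1000000 of a library size adjusted with TMM factors, which set the bulk of genes to no change between libraries. Positive log2 fold changes stand for more RNA under the Mdr2-knockout label, and calls rest on edgeR's quasi-likelihood test with Benjamini-Hochberg adjustment over all 12612 genes at 0.05. Library totals ran from 17100393 to 18124467 counts, and 1 count equalled 0.0496 to 0.0639 CPM. The group letter read as wild-type in the table was assigned by elimination. Abcb4 itself lay at 329.9, 369 and 273 CPM in wild-type-labelled libraries, against 499.6, 513 and 434 CPM under the Mdr2-knockout label (log2 fold change 0.57 with SE 0.12, edgeR adjusted p = 0.00389), which goes against a loss of the transcript, although reads from outside the part removed by the allele would also be counted. Groups are therefore named by their labels, and each direction is that of the labelled libraries.

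The enzymes were mostly a little lower in the libraries labelled Mdr2-knockout, relative to the TMM reference. Of the 47, 27 (57.4%) fell, 1 (2.13%) rose and 19 did not pass. Over all tested genes 16.3% were called lower and 20.9% higher, or 37.1% in either direction. These are also the shares to set beside the counts by route below, which rest on few genes each. The median log2 fold change of the members was -0.318, against 0.009 for all tested genes, and single values ran from -1.03 for Ahcy to 0.34 for Bhmt. Ahcy was the only member changed by 2-fold or more, where 0.753% of all genes were called lower and 11.1% higher by that much. The labelled groups did not overlap for 30 members with the labelled Mdr2-knockout libraries below and for 1 with them above, against 23.7% and 27.6% of all tested genes. Summed over all 47 genes, the level was 37362 to 39987 CPM with the wild-type label, against 29280 to 31354 CPM with the Mdr2-knockout label.

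The size of this fall, and most of its calls, depended on what the counts were scaled to. As a share of all counts, the 47 genes took 3.36% to 3.56% with the wild-type label, against 3.21% to 3.48% with the Mdr2-knockout label, ranges that overlap. Total-count scaling moved the median of all tested genes by 0.293 on the log2 scale, left 6 members lower and 4 higher, and put the members' median at -0.025. Under that scaling 2.62% of all genes were called lower and 47.1% higher. The distance between the members' median and that of all tested genes was -0.327 with TMM and with total counts and -0.326 with upper-quartile factors. A change of scaling moves every gene by nearly the same amount, so this distance was bound to stay and does not test the fall. Of the 27 members called lower, 6 kept the call under each of 14 alternatives: Ahcy, Hpd, Prodh2, Gldc, Ivd and Afmid. Another 14 lost it only with total counts. In bulk liver, fewer hepatocytes and less RNA of a gene per hepatocyte cannot be told apart.

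**Figure D1:**
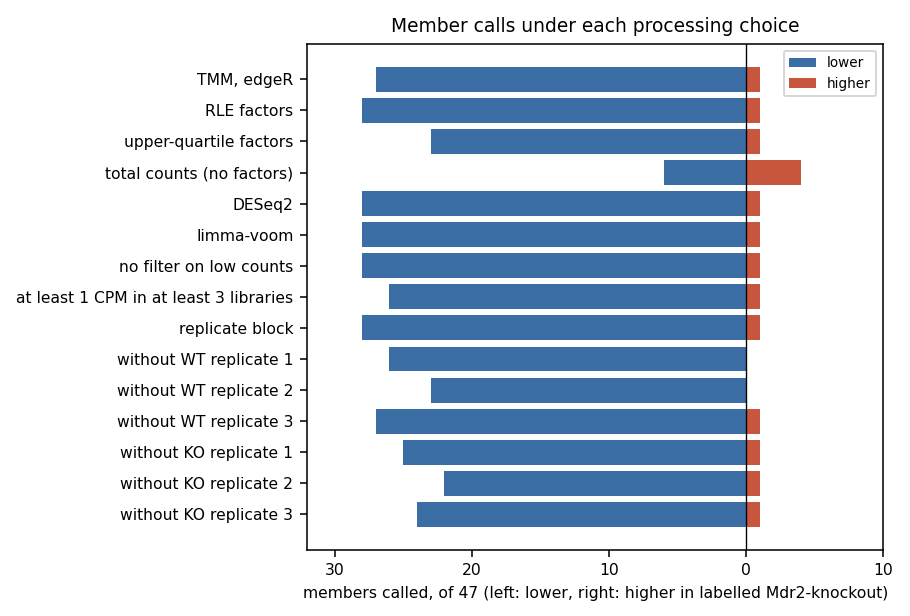
Number of the 47 genes called (x axis, from 0 in both directions) lower (blue, left) or higher (red, right) in the labelled Mdr2-knockout libraries, for each processing choice (y axis; TMM with edgeR at the top). Total counts leave 6 lower and 4 higher, and the other choices give 22 to 28 lower and at most 1 higher.

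**Figure D2:**
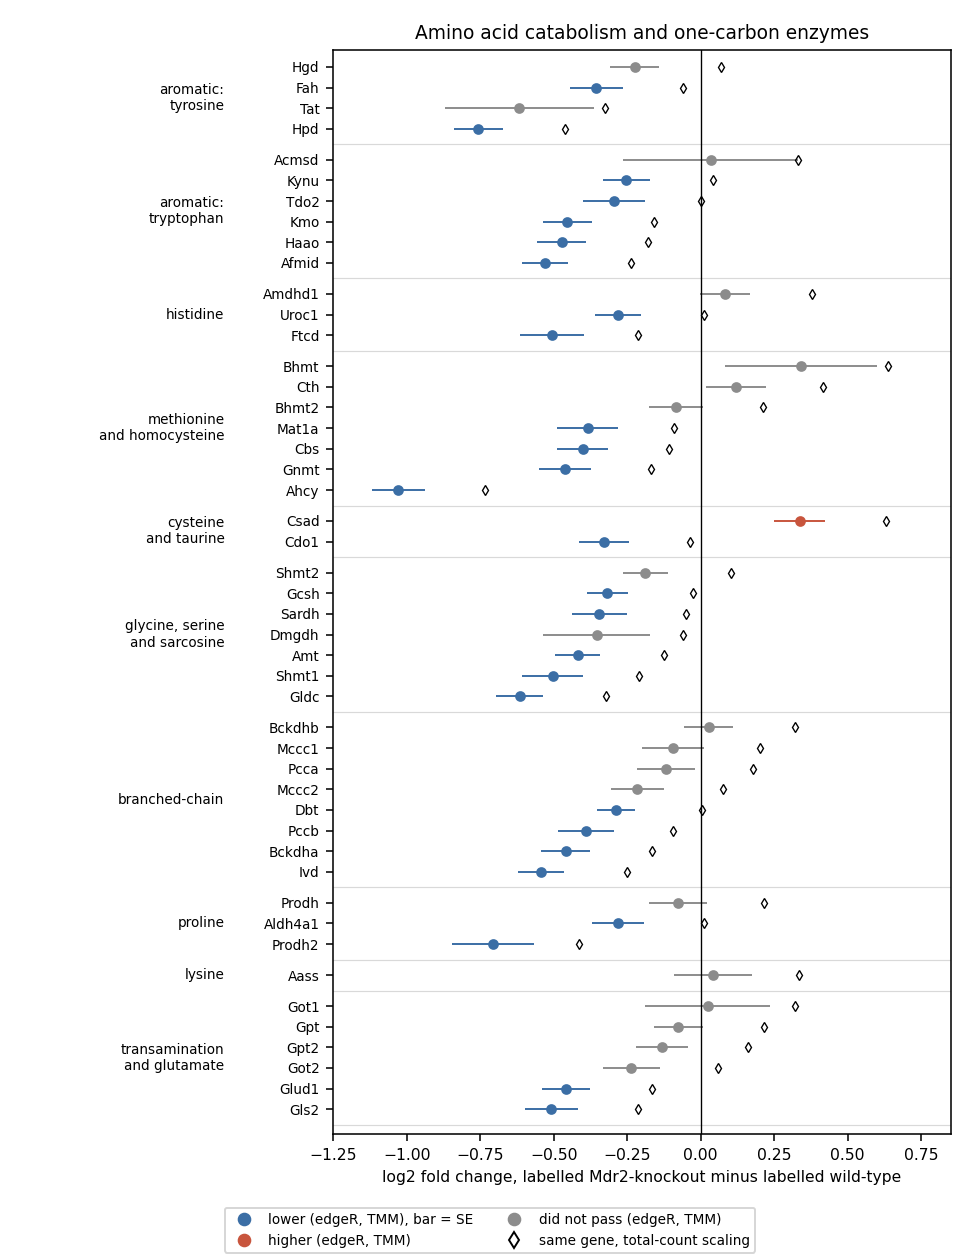
Log2 fold change (x axis) of each of the 47 genes, grouped by route, with filled circles and SE bars from edgeR with TMM scaling (blue lower, red higher, grey did not pass) and open diamonds for the same gene with total-count scaling. Ahcy stands lowest at -1.03, Csad is the only gene called higher at 0.34, and each diamond lies about 0.29 to the right of its circle.

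Promoter sequence was read for the 3 members with the steepest falls and for Csad, the member that rose, so that genes moving in opposite directions can be set side by side. Each run covers the bases from 250 to 41 before the RefSeq start of the gene, 5′ to 3′ on the gene's strand, with matches to the motifs searched in capitals.
Ahcy (GRCm38.p6, chr2:155074538-155074747, minus strand): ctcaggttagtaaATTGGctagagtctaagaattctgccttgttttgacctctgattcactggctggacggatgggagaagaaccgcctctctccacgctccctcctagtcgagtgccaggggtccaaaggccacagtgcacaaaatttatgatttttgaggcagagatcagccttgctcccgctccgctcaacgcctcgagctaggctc
Hpd (GRCm38.p6, chr5:123182764-123182973, minus strand): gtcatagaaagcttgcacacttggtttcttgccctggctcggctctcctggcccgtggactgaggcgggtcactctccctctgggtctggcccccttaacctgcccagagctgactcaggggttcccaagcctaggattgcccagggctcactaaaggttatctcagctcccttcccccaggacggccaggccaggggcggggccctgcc
Prodh2 (GRCm38.p6, chr7:30493408-30493617, plus strand): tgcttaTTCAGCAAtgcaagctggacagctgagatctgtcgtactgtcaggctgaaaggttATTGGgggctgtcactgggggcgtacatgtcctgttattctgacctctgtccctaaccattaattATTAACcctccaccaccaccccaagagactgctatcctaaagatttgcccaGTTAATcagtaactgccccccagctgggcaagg
Csad (GRCm38.p6, chr15:102205093-102205302, minus strand): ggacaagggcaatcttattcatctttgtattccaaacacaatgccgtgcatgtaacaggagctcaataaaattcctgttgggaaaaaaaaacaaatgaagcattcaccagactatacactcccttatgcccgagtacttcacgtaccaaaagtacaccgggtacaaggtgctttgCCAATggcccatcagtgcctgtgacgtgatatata

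Over both strands, 6 motifs were searched in this 210-base window: HNF4 as CAAAGTCCA, HNF1 as GTTAAT, C/EBP as TTGCNNAA, FOXA as TGTTTAC, the E-box CACGTG and the CCAAT box as CCAAT. In the runs above, Ahcy and Csad each hold 1 CCAAT box, Hpd holds no match, and Prodh2 holds 2 HNF1 matches, a C/EBP match and a CCAAT box, none of which overlap. RefSeq (GRCm38.p6) gave a promoter for 40 of the 47 members, and for the others, Cdo1, Cth, Dbt, Gls2, Gpt, Kynu and Mat1a, none was used. A CCAAT box was found in 22 of 40 members (55.0%) and in 30.4% of all 27025 promoters. Among the 22 lower members with a promoter it was found in 12 (54.55%), close to the share of all 40. The members' windows held a median of 5.5 CG pairs, against 4.0 in all promoters, and the sets were not matched for base content or expression. HNF1 was found in 7.5% of members and 5.67% of all promoters, C/EBP in 5.0% and 8.47%, the E-box in 2.5% and 4.68%, and HNF4 and FOXA in 0 of 40 members and in 0.303% and 2.62% of all promoters. A match is a stretch of letters and does not show that a factor binds there.

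Ahcy, which cleaves S-adenosylhomocysteine to homocysteine and adenosine, had the largest change of the 47. It lay at 2384, 2626 and 2429.6 CPM in wild-type-labelled libraries, against 1105, 1255 and 1286 CPM under the Mdr2-knockout label (log2 fold change -1.03 with SE 0.09, edgeR adjusted p = 3.17e-05). The labelled wild-type libraries lay close together and the groups stood far apart. The gene lies on chromosome 2 from 155059310 to 155074497 on the minus strand (GRCm38, GENCODE M21), with the promoter window printed above just before its start. Its longest transcript matches the predicted gene Gm4737 at 99.7% identity over 2083 bases, so reads could be split between them by the counting. Gm4737 held 17.8% to 18.5% of their joint counts in each library and had a log2 fold change of -1.07 (edgeR adjusted p = 2.71e-05). With both rows added together, which was chosen after seeing the data, the value was -1.04 (edgeR adjusted p = 3.17e-05). The pseudogenes Gm9826 and Gm5638 also match the Ahcy transcript, at 99.2% identity over 1299 bases and 94.5% over 1128 bases. Neither has a row in the count table, so this sum leaves them out.

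The enzymes on either side of Ahcy in the methionine cycle moved less. Gnmt, which uses S-adenosylmethionine to methylate glycine, lay at 2016, 1861 and 2074 CPM in wild-type-labelled libraries, against 1558, 1385 and 1379 CPM under the Mdr2-knockout label (log2 fold change -0.46 with SE 0.09, edgeR adjusted p = 0.00277). Cbs, which joins homocysteine to serine at the start of cysteine synthesis, lay at 735, 746 and 804 CPM in wild-type-labelled libraries, against 556, 548 and 626 CPM under the Mdr2-knockout label (log2 fold change -0.40 with SE 0.09, edgeR adjusted p = 0.00528). In both genes each labelled Mdr2-knockout library was below each labelled wild-type library. Mat1a, the liver's methionine adenosyltransferase, also fell, by 0.38 on the log2 scale (edgeR adjusted p = 0.015). All 3 of these calls were lost with total counts, and that of Mat1a also without labelled wild-type replicate 2 or without labelled Mdr2-knockout replicate 1 or 2 (edgeR adjusted p = 0.0584, 0.0584 and 0.0576).

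The other 3 genes of this route, which remethylate homocysteine or split cystathionine, did not pass. Bhmt, which remethylates homocysteine with betaine, lay at 3798, 4143 and 2724 CPM in wild-type-labelled libraries, against 6019.9, 3389 and 4114 CPM under the Mdr2-knockout label (log2 fold change 0.34 with SE 0.26, edgeR adjusted p = 0.347). Labelled Mdr2-knockout replicate 1 was the highest and labelled wild-type replicate 3 the lowest, and the groups overlapped. Its transcript matches the genes Gm5096 and Bhmt-ps1 at 99.4% and 98.9% identity, neither of which has a row of its own in the count table. Bhmt2, a neighbouring paralog that prefers S-methylmethionine, had a log2 fold change of -0.08 (edgeR adjusted p = 0.509), and Cth, which releases cysteine from cystathionine, of 0.12 (edgeR adjusted p = 0.382). With total counts Cth was called higher (0.415, edgeR adjusted p = 0.00565). The methionine route thus held both ends of the range, with a median of -0.385 over its 7 genes, 4 of them lower and 0 higher.

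Below cysteine the route held the single member that rose. Csad, the decarboxylase that makes hypotaurine, the precursor of taurine, lay at 284, 302 and 334 CPM in wild-type-labelled libraries, against 374, 405 and 382 CPM under the Mdr2-knockout label (log2 fold change 0.34 with SE 0.09, edgeR adjusted p = 0.0122), and the groups did not overlap. Cdo1, the dioxygenase that feeds it, fell from 2232 ± 135 to 1777 ± 82.5 CPM (SD, n = 3 per group; log2 fold change -0.33 with SE 0.08, edgeR adjusted p = 0.0126). Taurine is used in the liver to conjugate bile acids. The call of Csad held with total counts (0.63, edgeR adjusted p = 0.000222) and was lost without labelled wild-type replicate 1 or 2 (edgeR adjusted p = 0.0568 and 0.0539). That of Cdo1 was lost with total counts, and without labelled wild-type replicate 2 or labelled Mdr2-knockout replicate 3 (edgeR adjusted p = 0.0525 and 0.0523). Exons of Csad overlap those of Zfp740 on the other strand, and the strand setting of the counting is not given in the sources used here.

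**Figure D3:**
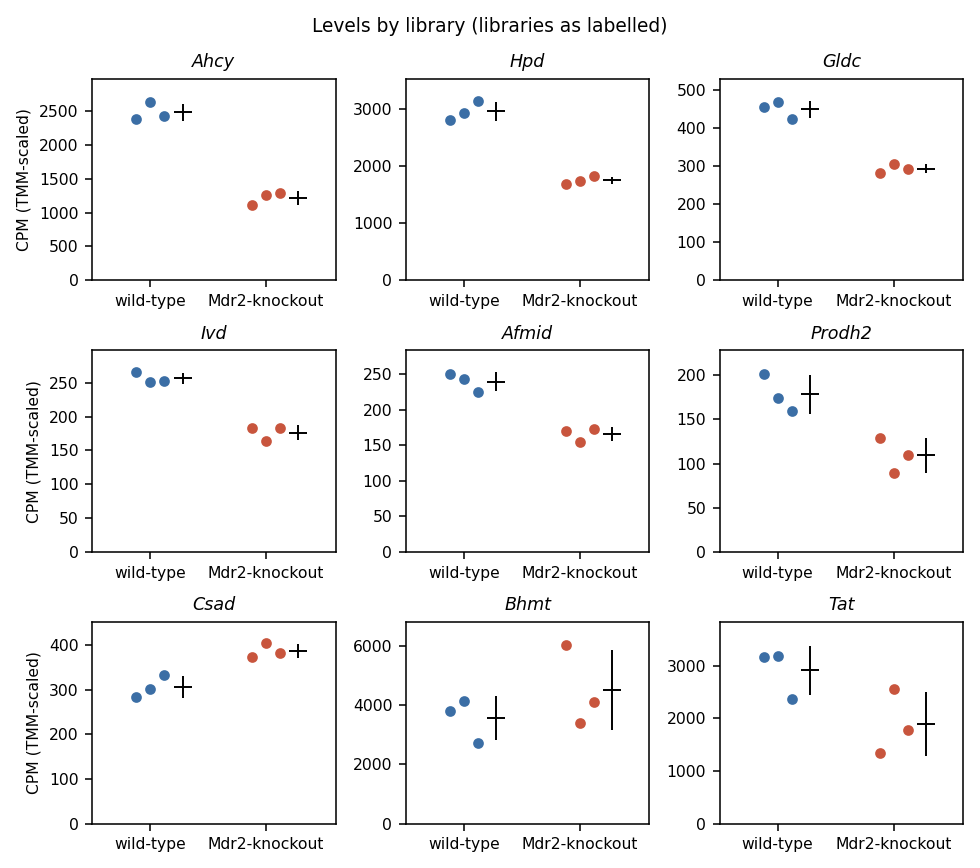
CPM with TMM scaling (y axis, from 0) of 9 genes in each library, blue for labelled wild-type and red for labelled Mdr2-knockout (replicates 1 to 3 from left to right), with the mean and SD of 3 in black. The 6 genes Ahcy, Hpd, Gldc, Ivd, Afmid and Prodh2 are lower with no overlap, Csad is higher with no overlap, and in Bhmt and Tat the groups overlap.

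Of the 4 tyrosine genes, 2 were lower, 0 were higher and 2 did not pass (median log2 fold change -0.486). Hpd, which turns 4-hydroxyphenylpyruvate into homogentisate, lay at 2806, 2921 and 3129 CPM in wild-type-labelled libraries, against 1687, 1736 and 1820.5 CPM under the Mdr2-knockout label (log2 fold change -0.76 with SE 0.08, edgeR adjusted p = 0.000122), and each labelled Mdr2-knockout library was far below each labelled wild-type library. Its promoter window, printed above, held none of the motifs searched. Fah, the last enzyme of the route, lay at 666, 630.3 and 664 CPM in wild-type-labelled libraries, against 544, 457 and 531 CPM under the Mdr2-knockout label (log2 fold change -0.35 with SE 0.09, edgeR adjusted p = 0.0112), again with no overlap. Hgd, which opens the ring of homogentisate, lay at 689.9, 734 and 778 CPM in wild-type-labelled libraries, against 632, 597 and 655 CPM under the Mdr2-knockout label (log2 fold change -0.22 with SE 0.08, edgeR adjusted p = 0.0572). Its groups did not overlap either, and it passed with RLE factors, DESeq2, limma-voom and no filter on low counts (adjusted p = 0.048, 0.0237, 0.0489 and 0.0473).

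Tat, the aminotransferase that begins tyrosine breakdown and is known to respond to glucocorticoids and glucagon, varied more than the other 3. It lay at 3170.5, 3197 and 2373 CPM in wild-type-labelled libraries, against 1352, 2558 and 1787 CPM under the Mdr2-knockout label (log2 fold change -0.62 with SE 0.25, edgeR adjusted p = 0.107). The groups overlapped, since labelled Mdr2-knockout replicate 2 was above labelled wild-type replicate 3. Without labelled Mdr2-knockout replicate 2 the log2 fold change was -0.90 (edgeR adjusted p = 0.00814), and with limma-voom on all 6 libraries it was -0.65 (adjusted p = 0.0434). With total counts Hpd alone of the tyrosine genes was called (-0.46, edgeR adjusted p = 0.00114).

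The kynurenine route of tryptophan fell at 5 of its 6 genes, and 1 did not pass (median log2 fold change -0.374). Afmid, which hydrolyses N-formylkynurenine, lay at 250.1, 244 and 225 CPM in wild-type-labelled libraries, against 171, 155 and 172 CPM under the Mdr2-knockout label (log2 fold change -0.53 with SE 0.08, edgeR adjusted p = 0.000775). Haao, which opens the ring of 3-hydroxyanthranilate on the way to NAD, lay at 431, 407 and 452 CPM in wild-type-labelled libraries, against 328, 296 and 305 CPM under the Mdr2-knockout label (log2 fold change -0.47 with SE 0.08, edgeR adjusted p = 0.00168). Kmo, the mitochondrial hydroxylase of kynurenine, lay at 339.9, 359 and 363 CPM in wild-type-labelled libraries, against 256, 241 and 279 CPM under the Mdr2-knockout label (log2 fold change -0.45 with SE 0.08, edgeR adjusted p = 0.00218). In all 3 the labelled groups did not overlap. Exons of Afmid overlap Tk1 on the other strand, and Gm20708 on the same strand.

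Tdo2, the first and rate-setting enzyme, had a smaller change, from 2516 ± 213 to 2052 ± 227 CPM (SD, n = 3 per group; log2 fold change -0.29 with SE 0.10, edgeR adjusted p = 0.0485), and Kynu, the kynureninase, had a log2 fold change of -0.25 (edgeR adjusted p = 0.0312). Acmsd, which steers carbon away from NAD, lay at 30.9, 53.8 and 60.8 CPM in wild-type-labelled libraries, against 40.3, 59.8 and 48.9 CPM under the Mdr2-knockout label, and its difference was within that spread (log2 fold change 0.03 with SE 0.30, edgeR adjusted p = 0.942). Tdo2 lost its call under 8 of 14 alternatives, among them without labelled wild-type replicate 2 or 3 or without labelled Mdr2-knockout replicate 1 or 2 (edgeR adjusted p = 0.113, 0.101, 0.158 and 0.085). Kynu lost it without labelled wild-type replicate 2 or without labelled Mdr2-knockout replicate 1 or 2 (edgeR adjusted p = 0.11, 0.075 and 0.0896), and with total counts Afmid alone of this route was called (-0.24, edgeR adjusted p = 0.0395).

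Histidine breakdown passes through formiminoglutamate, whose carbon is passed to folate by Ftcd. Ftcd lay at 412, 360.3 and 371 CPM in wild-type-labelled libraries, against 289, 227 and 289 CPM under the Mdr2-knockout label (log2 fold change -0.51 with SE 0.11, edgeR adjusted p = 0.00487). Uroc1, the urocanase, fell by 0.28 on the log2 scale (edgeR adjusted p = 0.0173). Amdhd1, the step between them, lay at 208, 209.6 and 220.0 CPM in wild-type-labelled libraries, against 250.1, 210.3 and 216 CPM under the Mdr2-knockout label (log2 fold change 0.08 with SE 0.09, edgeR adjusted p = 0.466), with overlapping groups. Without labelled Mdr2-knockout replicate 2 Uroc1 had an edgeR adjusted p of 0.0573. With total counts neither Ftcd nor Uroc1 was called, and Amdhd1 was called higher (0.38, edgeR adjusted p = 0.00552).

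The glycine, serine and sarcosine genes had 5 of 7 members lower, 0 higher and 2 not passing (median log2 fold change -0.354). Gldc, the glycine decarboxylase of the mitochondrial glycine cleavage system, lay at 456, 469 and 425 CPM in wild-type-labelled libraries, against 283, 306 and 292 CPM under the Mdr2-knockout label (log2 fold change -0.62 with SE 0.08, edgeR adjusted p = 0.000329). Amt, the aminomethyltransferase of the same complex, lay at 70.8, 68.6 and 66.3 CPM in wild-type-labelled libraries, against 53.1, 46.3 and 54.4 CPM under the Mdr2-knockout label (log2 fold change -0.42 with SE 0.08, edgeR adjusted p = 0.00232). Shmt1, the cytosolic serine hydroxymethyltransferase, lay at 197, 208 and 159 CPM in wild-type-labelled libraries, against 143, 125 and 129.8 CPM under the Mdr2-knockout label (log2 fold change -0.50 with SE 0.10, edgeR adjusted p = 0.00427). None of the 3 overlapped between the labelled groups, and Gldc stood furthest apart.

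Gcsh, the lipoyl carrier protein of glycine cleavage, had a log2 fold change of -0.32 (edgeR adjusted p = 0.00581), and Sardh, which oxidises sarcosine, of -0.34 (edgeR adjusted p = 0.0165). Sardh lost its call without labelled Mdr2-knockout replicate 2 or 3 (edgeR adjusted p = 0.0613 and 0.0607). Shmt2, the mitochondrial isozyme, did not pass at -0.19 (edgeR adjusted p = 0.0748), although its groups did not overlap. Dmgdh, which oxidises dimethylglycine, lay at 732, 746 and 518 CPM in wild-type-labelled libraries, against 615, 416 and 532 CPM under the Mdr2-knockout label (log2 fold change -0.35 with SE 0.18, edgeR adjusted p = 0.169), and passed without labelled wild-type replicate 3 (-0.52, edgeR adjusted p = 0.0252). Exons of Shmt1 and Shmt2 overlap Smcr8 and Ndufa4l2 on the other strand. With total counts Gldc alone of this group was called (-0.32, edgeR adjusted p = 0.00806).

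The branched-chain route split evenly between genes that fell and genes that did not pass: 4 of 8 members were lower, 0 were higher and 4 did not pass, with a median of -0.252. Ivd, the isovaleryl-CoA dehydrogenase of leucine breakdown, lay at 266, 251 and 253 CPM in wild-type-labelled libraries, against 182, 163 and 182 CPM under the Mdr2-knockout label (log2 fold change -0.54 with SE 0.08, edgeR adjusted p = 0.000555). Bckdha, a subunit of the dehydrogenase that commits branched-chain keto acids to oxidation, lay at 264, 248 and 241 CPM in wild-type-labelled libraries, against 194, 167 and 187 CPM under the Mdr2-knockout label (log2 fold change -0.46 with SE 0.08, edgeR adjusted p = 0.00202). Dbt, the transacylase core of the same complex, lay at 112, 104 and 106 CPM in wild-type-labelled libraries, against 88.7, 85.1 and 89.8 CPM under the Mdr2-knockout label (log2 fold change -0.29 with SE 0.07, edgeR adjusted p = 0.00667). Each of these had no overlap between the labelled groups, and so did Pccb, a subunit of propionyl-CoA carboxylase (log2 fold change -0.39 with SE 0.10, edgeR adjusted p = 0.00984).

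Bckdhb and Pcca, each a partner of a gene that fell, did not pass, and neither did Mccc1 and Mccc2. Bckdhb, which pairs with Bckdha, lay at 55.7, 57 and 47.5 CPM in wild-type-labelled libraries, against 57.1, 52.7 and 53.4 CPM under the Mdr2-knockout label (log2 fold change 0.03 with SE 0.08, edgeR adjusted p = 0.821), and the groups overlapped. Pcca, the partner of Pccb, had a log2 fold change of -0.12 (edgeR adjusted p = 0.381), and the methylcrotonyl-CoA carboxylase genes Mccc1 and Mccc2 of -0.09 (edgeR adjusted p = 0.519) and -0.22 (edgeR adjusted p = 0.0865). Mccc2 passed without labelled Mdr2-knockout replicate 1 (-0.32, edgeR adjusted p = 0.0214). With total counts Ivd kept its call (-0.25, edgeR adjusted p = 0.0289), Bckdha, Dbt and Pccb lost theirs, and Bckdhb was called higher (0.32, edgeR adjusted p = 0.0102). Exons of Bckdha overlap B3gnt8, which had at most 12 counts in a library, and those of Pcca overlap Ggact on the other strand.

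In proline breakdown, Prodh2, which oxidises hydroxyproline, lay at 201, 174 and 159 CPM in wild-type-labelled libraries, against 128, 89.1 and 109.9 CPM under the Mdr2-knockout label (log2 fold change -0.71 with SE 0.14, edgeR adjusted p = 0.00558), with no overlap. Prodh, the proline dehydrogenase, had a log2 fold change of -0.08 (edgeR adjusted p = 0.569), and Aldh4a1, the next enzyme for both substrates, of -0.28 (edgeR adjusted p = 0.032). Prodh2 kept its call with total counts (-0.41, edgeR adjusted p = 0.0468). Aldh4a1 lost it under 5 alternatives besides turning to 0.01 with total counts, including without labelled wild-type replicate 1 or 3 or without labelled Mdr2-knockout replicate 2 or 3 (edgeR adjusted p = 0.0732, 0.0676, 0.107 and 0.0673). Aass, which starts lysine breakdown, lay at 373, 382 and 442 CPM in wild-type-labelled libraries, against 376, 356 and 499.7 CPM under the Mdr2-knockout label (log2 fold change 0.04 with SE 0.13, edgeR adjusted p = 0.832), with labelled Mdr2-knockout replicate 3 highest and the groups overlapping.

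Among the genes that handle glutamate and transfer amino groups, 2 of 6 were lower, 0 higher and 4 did not pass. Gls2, the liver glutaminase, lay at 536, 603 and 574 CPM in wild-type-labelled libraries, against 400.4, 370.1 and 435 CPM under the Mdr2-knockout label (log2 fold change -0.51 with SE 0.09, edgeR adjusted p = 0.00184). Glud1, glutamate dehydrogenase, lay at 1356, 1366 and 1226 CPM in wild-type-labelled libraries, against 954, 941 and 977 CPM under the Mdr2-knockout label (log2 fold change -0.46 with SE 0.08, edgeR adjusted p = 0.00189). Neither gene overlapped between the labelled groups, and both calls were lost with total counts. The aspartate aminotransferases Got1 and Got2 had log2 fold changes of 0.02 (edgeR adjusted p = 0.945) and -0.24 (edgeR adjusted p = 0.0831), and the alanine aminotransferases Gpt and Gpt2 of -0.08 (edgeR adjusted p = 0.511) and -0.13 (edgeR adjusted p = 0.269). Got2 passed without labelled wild-type replicate 3 (-0.30, edgeR adjusted p = 0.0424), and a pseudogene, Got2-ps1, matches its transcript at 99.1% identity. Exons of Gls2 overlap Spryd4 on the other strand.

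The members were also counted by where their enzymes work. Of the 23 members whose enzymes are known to work in mitochondria, 13 were lower and 0 higher, with a median of -0.318. Of the other 24, 14 were lower and 1 higher, with a median of -0.312. Among all tested genes 16.3% were called lower and 20.9% higher. Replicates of a group were close for most members: the median SD was 6.24% of the mean with the wild-type label, against 7.66% with the Mdr2-knockout label. It was above 20% in at least 1 group for 4 members, Acmsd, Tat, Bhmt and Got1, none of which passed.

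Per length, the members span a wide range of abundance in the deposited FPKM, which are scaled by library totals. In the labelled wild-type libraries 6 members were at or above 1000 FPKM on average, Hpd, Gnmt, Bhmt, Mat1a, Tdo2 and Cdo1, and the lowest was Mccc1 at 15.9 FPKM. Hpd stood first of the 47 at 1904 ± 94.1 FPKM (SD, n = 3) with the wild-type label, and at place 5 with 1381 ± 53.4 FPKM under the Mdr2-knockout label. Bhmt was at place 3 with 1549.9 ± 320.3 FPKM and at place 1 with 2411 ± 741 FPKM, with replicates wide apart. Gnmt was second in both, at 1737 ± 115 and 1545 ± 117 FPKM. Csad went from place 33 to place 25, and Gldc from place 24 to place 31. Neighbours in this order often lay within each other's SD, as Hgd (369 ± 18.8 FPKM), Fah (372 ± 16.9 FPKM) and Glud1 (376 ± 23.8 FPKM) did in the labelled wild-type libraries.

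Ratios of 2 genes within a library need no scaling between libraries. Of 14 listed pairs of isozymes, partner subunits and branch-point enzymes, 8 had no overlap between the labelled groups, 4 with the ratio higher and 4 with it lower in the labelled Mdr2-knockout libraries. Of all tested genes, taken singly by CPM, 27.6% had no overlap with the labelled Mdr2-knockout libraries above and 23.7% with them below. The share among other pairs of genes was not computed, so 8 of 14 is a description only. With 3 libraries against 3, the exact two-sided permutation test cannot go below p = 0.1, so no pair could pass 0.05; those 8 had p = 0.1, and 0.175 after Benjamini-Hochberg adjustment over the 14. Values are given for 13 of the pairs. The number with no overlap was 8 to 10 in the sets that left out 1 library. Leaving out a library cannot bring separated groups to overlap, so this number could not fall below 8.

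Cdo1 per count of Csad was 7.98, 7.76 and 6.25 in wild-type-labelled libraries, against 4.84, 4.54 and 4.41 under the Mdr2-knockout label (difference -0.67), and Cbs per count of Cth was 1.57, 1.32 and 1.39 in wild-type-labelled libraries, against 1.04, 0.884 and 1.05 under the Mdr2-knockout label (difference -0.53). In both ratios the labelled Mdr2-knockout libraries all lay below the labelled wild-type ones.

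Bckdha per count of Bckdhb was 4.74, 4.35 and 5.08 in wild-type-labelled libraries, against 3.39, 3.17 and 3.51 under the Mdr2-knockout label (difference -0.49). Pcca per count of Pccb was 0.398, 0.376 and 0.396 in wild-type-labelled libraries, against 0.476, 0.452 and 0.482 under the Mdr2-knockout label (difference 0.27), and Mccc1 against Mccc2 differed by 0.12. Mat2a, the adenosyltransferase of most non-liver cells, per count of Mat1a was 0.0136, 0.0115 and 0.0104 in wild-type-labelled libraries, against 0.0154, 0.0185 and 0.0158 under the Mdr2-knockout label (difference 0.49), with Mat2a itself not passing at 0.10 (edgeR adjusted p = 0.454). The mitochondrial Shmt2 per count of Shmt1 was 1.19, 1.08 and 1.39 in wild-type-labelled libraries, against 1.47, 1.49 and 1.54 under the Mdr2-knockout label (difference 0.31). Gpt2 to Gpt, Got1 to Got2, Bhmt2 to Bhmt, Prodh2 to Prodh, Gldc to Amt and Bhmt to Mtr overlapped between the groups, with exact permutation p from 0.2 to 0.6.

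Against its neighbours in the cycle, Ahcy was lower as well, in a comparison chosen after its values were seen and therefore given without a test. Ahcy per count of Mat1a was 0.449, 0.425 and 0.417 in wild-type-labelled libraries, against 0.269, 0.304 and 0.256 under the Mdr2-knockout label. Per count of Gnmt it was 1.18, 1.41 and 1.17 in wild-type-labelled libraries, against 0.709, 0.906 and 0.932 under the Mdr2-knockout label. Neither ratio overlapped between the groups.

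**Figure D4:**
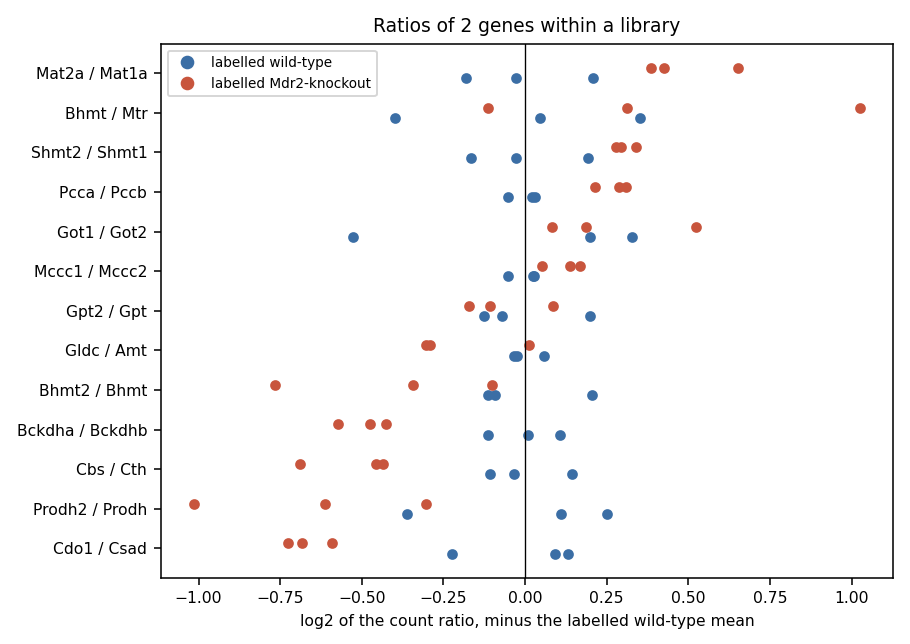
Log2 of the ratio of 2 genes' counts in each library, minus the mean of the labelled wild-type libraries (x axis), for 13 of the 14 listed pairs, blue for labelled wild-type and red for labelled Mdr2-knockout. The lowest mean difference is that of Cdo1 / Csad at -0.67 and the highest that of Mat2a / Mat1a at 0.49, and 7 of the pairs shown do not overlap.

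Other genes of the same pathways were counted from a list of 97 that are not among the 47. Of the 92 tested, 10 were higher, 32 lower and 50 did not pass, with a median log2 fold change of -0.143. Over all tested genes 20.9% were called higher and 16.3% lower, the shares to set beside the counts by route below. With total counts the same list gave 26 higher and 4 lower, where 47.1% of all genes were called higher and 2.62% lower. Kyat1, a kynurenine aminotransferase, was the only one lower by 2-fold or more, at 145, 169 and 179 CPM in wild-type-labelled libraries, against 71.3, 73.1 and 70.8 CPM under the Mdr2-knockout label (log2 fold change -1.20 with SE 0.08, edgeR adjusted p = 8.69e-06). Mthfd1l, the mitochondrial formyltetrahydrofolate synthetase, was the only one higher by 2-fold or more, at 0.699, 1.02 and 0.379 CPM in wild-type-labelled libraries, against 1.79, 2.01 and 3.22 CPM under the Mdr2-knockout label (log2 fold change 1.73 with SE 0.39, edgeR adjusted p = 0.00655). Both calls held under each of the 14 alternatives, and the level of Mthfd1l was low in the labelled wild-type libraries, at most 1.02 CPM.

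Next to tyrosine breakdown, 4 of 6 genes were lower and 0 higher, among them Gchfr, the feedback regulator of tetrahydrobiopterin synthesis, -0.74 (edgeR adjusted p = 6.46e-05) and Gstz1, the isomerase ahead of Fah, -0.35 (edgeR adjusted p = 0.0101). Hal, which begins histidine breakdown, had -0.31 (edgeR adjusted p = 0.0197). Near methionine, 1 of 16 was lower and 2 were higher: Pemt, which methylates phosphatidylethanolamine to phosphatidylcholine, -0.29 (edgeR adjusted p = 0.0191), Chdh, which makes the betaine precursor for Bhmt from choline, 0.28 (edgeR adjusted p = 0.0205), and Mtap, of the methionine salvage route, 0.34 (edgeR adjusted p = 0.0252). Sulfur oxidation and transfer genes were lower for 3 and higher for 1 of 5, with Mpst at -0.57 (edgeR adjusted p = 0.000521), Tst at -0.51 (edgeR adjusted p = 0.00218) and Sqor at -0.29 (edgeR adjusted p = 0.0125). These values are log2 fold changes. With total counts Gchfr, Mpst, Chdh and Mtap kept their calls, while Gstz1, Hal, Tst, Sqor and Pemt lost theirs (edgeR adjusted p = 0.617, 0.913, 0.0945, 0.943 and 0.994).

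Left out in turn, single libraries ended several of these calls. Hal lost its call without labelled Mdr2-knockout replicate 2 (edgeR adjusted p = 0.0699). Pemt lost it without labelled wild-type replicate 2 or labelled Mdr2-knockout replicate 3 (edgeR adjusted p = 0.0652 and 0.0645). Chdh lost it without labelled wild-type replicate 2 or 3 or labelled Mdr2-knockout replicate 1 (edgeR adjusted p = 0.0896, 0.0618 and 0.0739), and Mtap without labelled wild-type replicate 2 or labelled Mdr2-knockout replicate 1 or 2 (0.1, 0.059 and 0.0796).

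Near glycine and serine, 5 of 13 tested genes were lower and 1 higher, with Gcat at -0.44 (edgeR adjusted p = 0.0019), Srr at -0.42 (edgeR adjusted p = 0.00294) and Glyat, which conjugates glycine, at -0.51 (edgeR adjusted p = 0.0026). Folate enzymes and carriers had 5 of 15 lower and 2 higher. Branched-chain companions had 8 of 17 lower and 0 higher, with the cobalamin gene Mmaa at -0.38 (edgeR adjusted p = 0.00568), Acad8 of valine breakdown at -0.33 (edgeR adjusted p = 0.00703) and Hibadh at -0.34 (edgeR adjusted p = 0.00792). Proline companions had 1 of 5 lower and 0 higher: Pycrl, of proline synthesis, had -0.45 (edgeR adjusted p = 0.00922), while Aldh18a1 had 0.71 (edgeR adjusted p = 0.0695) and was called higher with total counts (1.00, edgeR adjusted p = 0.0128). All 7 of the lower calls named here were lost with total counts.

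In lysine breakdown Dhtkd1, which oxidises 2-oxoadipate, rose, at 78.3, 67.7 and 75 CPM in wild-type-labelled libraries, against 116, 129.9 and 122 CPM under the Mdr2-knockout label (log2 fold change 0.73 with SE 0.08, edgeR adjusted p = 0.000107), while Gcdh, the step after it, fell by 0.49 on the log2 scale (edgeR adjusted p = 0.00487) and Dlst had -0.08 (edgeR adjusted p = 0.407). With total counts the Gcdh call was lost and Dlst was called higher (0.21, edgeR adjusted p = 0.0458). The asparaginase gene Asrgl1 rose, with 0.75 (edgeR adjusted p = 0.00123). Asns, which makes asparagine, had 0.51 (edgeR adjusted p = 0.121), and was called higher with total counts (0.80, edgeR adjusted p = 0.0163) and when labelled wild-type replicate 3 was left out (0.74, edgeR adjusted p = 0.0376). The calls of Dhtkd1 and Asrgl1 held under each of the 14 alternatives.

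Marker genes of liver cell types were counted in the same libraries, where 16.3% of all tested genes were called lower and 20.9% higher. Of 15 tested hepatocyte genes, all of secreted plasma proteins, 13 were lower and 0 higher, with a median of -0.524, and their summed level was 155860 to 165580 CPM with the wild-type label, against 102890 to 108420 CPM with the Mdr2-knockout label. All 13 tested of 14 cholangiocyte markers were higher, with a summed level of 69.9 to 89.0 CPM against 412.7 to 450.5 CPM, and Cldn4 and Cftr were at 0 counts in at least 1 labelled wild-type library. Of the stellate cell and fibroblast markers, 9 of 12 were higher (251 to 384 against 607 to 739 CPM), as were 10 of 11 tested monocyte and macrophage markers (118 to 208 against 397 to 407 CPM). Of 6 Kupffer cell markers 1 was higher and 0 lower, and they overlapped in sum (190.5 to 347 against 254 to 351 CPM). Marco was the one called (log2 fold change 1.26, edgeR adjusted p = 0.0177). Cd163 did not pass at -1.04 (edgeR adjusted p = 0.0795), although its groups did not overlap. Endothelial markers went both ways, with 2 of 9 higher and 3 lower. Of 4 tested T, NK and B cell markers, 1 was higher and 0 lower. The part of these shifts in the values of the 47 enzymes was not tested.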

How the data were processed

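The authors deposited raw read counts per gene symbol, whole numbers with no normalization, and FPKM for the same genes, which per the values are those counts divided by a gene constant and the library total. Per the submitters' processing notes, StringTie, Trimmomatic, Bowtie2, HTSeq, HISAT2, DESeq, Cufflinks and SAMtools and the mm10 build took part, while their roles and versions, the annotation and the strand setting go unstated in the labels. Columns lettered M were read as Mdr2-knockout and N as wild-type by elimination; 0 columns lacked a sample. All 6 libraries were fitted with edgeR 4.0.16 in R 4.3.3: filterByExpr defaults (minimum count 10, minimum total 15), TMM factors, robust quasi-likelihood, group as the only term, Benjamini-Hochberg over all tested genes, threshold 0.05. Each SE was derived from the fitted change and the F value. Ratios of raw counts were tested with the exact permutation test (scipy 1.17.1). Alternatives were DESeq2 1.42.0, limma-voom (limma 3.58.1), scaling by total counts, by upper quartiles or by RLE factors, 2 other filters, a replicate block and 6 sets without 1 library. Transcripts of other genes with at least 90% identity over 300 bases were found with BLAST in GENCODE M21. Promoters came from RefSeq GRCm38.p6. The pipeline was tested on simulated data in which far fewer genes were changed than were called here. There the share of false calls came out above the nominal 0.05 and most of the smallest changes were missed. Those shares need not hold for these data, but calls with an adjusted p close to 0.05 are best read as less certain than that value states. The members, lists and pairs were chosen with earlier results of these data known. Values in every library were given for members changed 2-fold or more and for the 3 with the smallest p in each main route, and further members were chosen after their values were seen. Companion genes were named if changed 2-fold or more, or else as the 3 with the smallest p in a route; some of these, and 1 pair, are not reported here.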

Additional observations from a re-analysis of the deposited data

How the results depend on the processing

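With total counts, 5943 genes were higher and 330 lower, 4 members higher and 6 lower (median -0.025), and 26 companion genes higher and 4 lower. That scaling turned positive 4 route values (median log2 fold change, branched-chain 0.0409; median log2 fold change, histidine 0.0105; median log2 fold change, proline 0.0121; median log2 fold change, transamination and glutamate 0.1096) and also Hgd (0.0696), Kynu (0.0422), Uroc1 (0.0105), Bhmt2 (0.2112), Shmt2 (0.1043), Dbt (0.0045), Mccc1 (0.2), Mccc2 (0.0773), Pcca (0.1766), Prodh (0.2151), Aldh4a1 (0.0121), Got2 (0.0573), Gpt (0.2166), Gpt2 (0.1619), Pemt (0.0009), Sqor (0.0075) and Dlst (0.211). This follows from the scaling itself, which moved the median of all tested genes by 0.293 and turns values that lie below 0 by less than about that much. Among them were 4 members called lower with TMM: Kynu (-0.25), Uroc1 (-0.28), Dbt (-0.29) and Aldh4a1 (-0.28). Upper-quartile factors ended the calls of Tdo2, Kynu, Uroc1, Aldh4a1, Hal and Pemt (edgeR adjusted p = 0.103, 0.0819, 0.0508, 0.0854, 0.0545 and 0.0543), leaving 23 members lower.

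Leave-one-out fits gave 22 to 27 members lower and 0 to 1 higher (0 when labelled wild-type replicate 1 or 2 was left out), and 5 to 11 companion genes higher (5 when labelled wild-type replicate 2, and 6 when labelled Mdr2-knockout replicate 1, was left out). Over these fits the sign turned for Acmsd (-0.2164 to 0.219), Aass (-0.1262 to 0.1296), Got1 (-0.1634 to 0.1323), Bckdhb (-0.0615 to 0.0678), Prodh (-0.1543 to 0.0198) and the Gpt2 to Gpt ratio (-0.139 to 0.0357), none called. RLE factors, DESeq2, limma-voom and no filter each gave 28 members lower, and at least 1 CPM in 3 libraries gave 26. Deviations from the group means were weakly correlated between same-numbered libraries (r = 0.0842, 0.0449 and -0.0759). Differently numbered libraries had r from -0.117 to 0.069. No pairing by number was seen, but so few libraries cannot exclude one. With a replicate block 28 members were lower, 1 was higher, and Mccc2 passed (-0.22, edgeR adjusted p = 0.0405). With 3 libraries a group, ratios cannot reach p under 0.1, and genes of few counts such as Mthfd1l are measured coarsely.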
